A study of Mus musculus with 35 samples.

Results

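Microglia of rNLS8 mice that never left doxycycline were set against microglia of wild-type (WT) mice that carry the same date code, in 9 of the 35 bulk RNA-seq libraries of the series. Members were taken by genotype, diet and date code as the labels and the library names give them, with no use of expression values. The 6 rNLS8 libraries (Controls 4 to 9, genotype +/+) came from mice labelled as continuously on doxycycline, for 6 weeks by the series' design text. The 3 WT libraries (Controls 1 to 3, genotype -/-, described as littermates) came from mice taken off doxycycline for 6 weeks and then put back on it for 1 week. All mice had a mixed C57BL/6J X C3HeJ F1 background, and all were kept on doxycycline until 8 to 12 weeks of age, when the diets of the study began. Both groups were therefore eating doxycycline when their whole spinal cords were taken, and the WT group had an interruption that the rNLS8 group had not. Genotype and diet history change together here and cannot be told apart.

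rNLS8 mice are a model of amyotrophic lateral sclerosis (ALS) with a 2-part transgene. The promoter of the neurofilament heavy chain gene drives the tetracycline transactivator in neurons, and the transactivator switches on a human TDP-43 that cannot enter the nucleus properly. Doxycycline blocks the transactivator, so the transgene should be silent in the rNLS8 mice described here. The series' design text uses them as symptom-free genetic controls and uses the WT littermates as controls for doxycycline. Microglia are the resident macrophages of the central nervous system, and they are known to change from a homeostatic to a disease-associated state when motor neurons degenerate. Doxycycline is an antibiotic that is also known to inhibit protein synthesis in mitochondria and the activity of matrix metalloproteinases. The deposited table lists mouse genes, so RNA of the human transgene has no row in it.

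Each library held 13.9 M to 19.1 M expected counts. Spearman's rho between libraries was 0.933 to 0.965 among the rNLS8 libraries, 0.961 to 0.964 among the WT libraries and 0.937 to 0.967 between a library of each group, as a description over genes. The genes of the antigens used for sorting, Itgam (CD11b) and Ptprc (CD45), were detected in all 9 libraries, as were the microglial markers P2ry12, Tmem119 and Cx3cr1. The sex written in the labels of Controls 7 and 8 went against their Xist and Ddx3y counts, whereas the first sex column of the deposited design table did not, and that column was used. A share of each library's TPM total lay outside the deposited table. It was 14.4% to 30.8% in rNLS8 libraries, highest in Controls 7 and 5, and 13.9% to 15.2% in WT libraries (two-sided exact permutation test over 84 assignments, p = 0.143, adjusted p = 0.873 over 16 library values). With 6 and 3 libraries, 0.0119 is the smallest two-sided p this test can give.

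A single gene passed the test. Mpeg1 (ENSMUSG00000046805.9, mm10 chromosome 19, 12460779 to 12465283, plus strand) encodes perforin-2, a pore-forming protein of macrophages that acts on engulfed bacteria. In CPM (counts relative to library size, here after TMM scaling of the 9 libraries) it stood at 934 to 1487 with a median of 1323 in rNLS8 microglia, and at 215, 193 and 198 in the WT libraries. Each rNLS8 library was above each WT library, and the lowest rNLS8 value, in Control 7, was far from the highest WT value. The mean was 1275 ± 217 CPM in rNLS8 microglia (SD, n = 6) and 202 ± 11.4 CPM in WT microglia (SD, n = 3). In the edgeR quasi-likelihood fit Mpeg1 rose by 2.67 ± 0.16 on the log2 scale (SE, 95% interval 2.31 to 3.03), with a Benjamini-Hochberg adjusted p of 3.95e-05. It was the 1 gene called of 12958 tested, 0.00772% of them. At an unadjusted p under 0.05 there were 263 genes with higher values in rNLS8 microglia (2.03%) and 239 with lower values (1.84%). Groups did not overlap in CPM for 295 genes (2.28%), 131 of them higher (1.01%) and 164 lower (1.27%) in rNLS8 microglia. DESeq2 called 40 genes in the same libraries, 20 in each direction, and the text below gives edgeR's values unless DESeq2 is named. In bulk libraries such as these, fewer cells of a type and less RNA per cell cannot be told apart.

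The Mpeg1 values of the whole series fell into separate ranges, within groups as well as between them. All mice had the mixed background named above, and strain genotypes at this or any other locus were not analysed here. On a scale common to the 35 libraries they ran from 74.8 to 3705 CPM with no value between 251 and 617. Of the 6 rNLS8 libraries on doxycycline, 6 lay above that gap, and of the 3 WT libraries of the same date, 0 did. Elsewhere each group had libraries on both sides: 4 of 7 in early disease, 5 of 7 in late disease, 3 of 7 in recovery and 2 of 5 among WT libraries of other dates lay above it. The highest WT library of another date, Control 13, had 2354 CPM, above each rNLS8 library on doxycycline, and the highest library of all was 1 of late disease. When the 35 libraries were fitted together, with 1 term for each combination of group and date, the Mpeg1 difference of the same 9 libraries was 2.64 with an adjusted p of 0.513, and its call was lost. The spread of log2 CPM was 0.26 in the 6 rNLS8 libraries and 0.08 in the 3 WT libraries of that date, against 1.54 to 1.81 in the other 4 sets (SD).

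**Figure D1:**
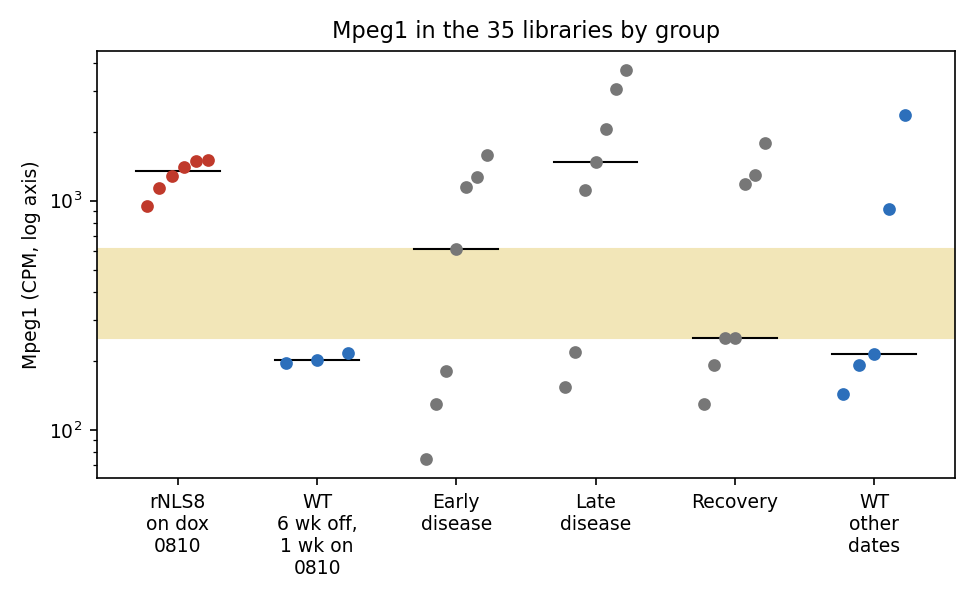
Mpeg1 level (CPM, log axis) in each of the 35 libraries by group, where a point is a library, a line is the group's median and the shaded band is the empty stretch between 251 and 617 CPM. The 6 rNLS8 libraries on doxycycline sit above the band and the 3 WT libraries of the same date below it, while each other group has libraries on both sides.

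Gm4366 came nearest to a call after Mpeg1. It is annotated as a processed pseudogene (mm10 chromosome 7, 116824510 to 116825851, minus strand) and is a near-identical copy of Eef1g, the gene of a subunit of translation elongation factor 1, which lies on chromosome 19, 3.49 Mb from Mpeg1. Over its whole length of 1342 bases Gm4366 matched the Eef1g transcript at 99.63% of positions, with 5 differences, of which 3 lie close together. These stretches of 114 bases are shown because they hold those 3 differences and show how few bases separate reads of the gene from reads of its copy. Capitals mark the bases that differ, and both are written 5′ to 3′ as transcribed, from the GENCODE transcripts on mm10.
Gm4366: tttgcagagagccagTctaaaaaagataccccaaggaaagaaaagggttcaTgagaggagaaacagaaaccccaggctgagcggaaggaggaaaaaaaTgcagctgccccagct
Eef1g: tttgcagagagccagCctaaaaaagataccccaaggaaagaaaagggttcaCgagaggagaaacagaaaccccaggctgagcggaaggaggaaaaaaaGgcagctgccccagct
Counted from 1 at the start of the Eef1g transcript, whose coding part runs from base 174 to base 1484, the differences shown are C849T, C885T and G932T.

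Gm4366 stood at 11.6 to 25.99 CPM with a median of 15.2 in rNLS8 microglia, and at 1.92, 0.852 and 3.07 CPM in WT microglia. No rNLS8 library came down to the WT values. The log2 difference was 3.09 ± 0.41 (SE), with an adjusted p of 0.0578. Eef1g, chosen here after its values were seen, stood at 33.7 to 50.5 CPM with a median of 43.4 in rNLS8 microglia, and at 53.5, 45.9 and 57.7 CPM in WT microglia (log2 difference −0.28 ± 0.16, adjusted p = 1). The sum of the gene and its copy was 45.3 to 72.3 CPM in rNLS8 and 46.7 to 60.8 CPM in WT libraries, so the sums overlapped although the copy did not. DESeq2 called Gm4366 (adjusted p = 3.11e-11), and so did edgeR when Control 6 was left out (adjusted p = 0.0174). The authors' counting assigns such shared reads by estimation, so the value of either gene is uncertain.

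The 4 other genes of smallest p among those with higher values did not pass the test in edgeR, while DESeq2 called each of them. Cdk17 encodes a cyclin-dependent kinase and ranged from 48.3 to 80.0 CPM in rNLS8 microglia, with a median of 56.1, against 25.4, 29.5 and 28.7 CPM in WT microglia. Its groups did not overlap, and the log2 difference was 1.09 ± 0.18 with an adjusted p of 0.346. Fam129a, a gene of the cell stress response, ranged from 13.9 CPM in Control 6 to 81.4 CPM in Control 5, with a median of 31.1, against 4.12, 12.4 and 1.46 CPM in WT microglia. The lowest rNLS8 value lay just above the highest WT value (log2 difference 3.04 ± 0.60, adjusted p = 0.517). On the scale common to the 35 libraries, WT libraries of other dates had medians of 48.9 CPM for Cdk17 and 52.2 CPM for Fam129a. The medians were 56.8 and 31.5 CPM in the rNLS8 libraries and 29.0 and 4.15 CPM in the same-date WT libraries.

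Clec1a, which encodes a C-type lectin receptor, had 52, 71, 52, 32, 7 and 56 counts in Controls 4 to 9 and 0 counts in each of the 3 WT libraries. Taken over each group's depth and against a floor of 3 counts for the WT group, that is at least 46.7-fold higher in rNLS8 microglia, with an adjusted p of 0.480. In the 5 WT libraries of other dates Clec1a was at 0.421 to 3.59 CPM, so WT libraries of other dates did hold it. In the fit of all 35 libraries the Clec1a difference of these 9 was called (adjusted p = 0.0126). Gm609 had 45, 89, 337, 67, 1 and 86 counts in Controls 4 to 9 and 0, 1 and 1 counts in the WT libraries, a ratio of 162 with an exact interval of 44.7 to 1343 that covers counting error only (adjusted p = 0.805). Control 8 held as little Gm609 as the WT libraries did. The intervals in counts rest on sequenced fragments without molecular identifiers.

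Among genes with lower values in rNLS8 microglia edgeR called 0, with 239 at an unadjusted p under 0.05, and DESeq2 called 20. Fcrls, a microglial gene of the Fc receptor-like family and a homeostatic marker (mm10 chromosome 3, 87250758 to 87263738, minus strand), had the largest difference of the 6 genes of smallest p in that direction. It stood at 93.4, 110, 898, 233, 161 and 244 CPM in Controls 4 to 9, and at 2581, 938 and 1220 CPM in Controls 1 to 3. Control 6 reached almost the lowest WT value, while the other 5 rNLS8 libraries stayed well under it. The log2 difference was −3.12 ± 0.60 with an adjusted p of 0.480, and it was −3.38 with an adjusted p of 0.0174 when Control 6 was left out. Without Control 1, the highest WT library, it was −2.28 with an adjusted p of 1. On the scale common to the 35 libraries, Fcrls also varied widely within other groups. It stood at 362 to 1483 CPM in WT libraries of other dates and 195 to 1354 CPM in early disease. In late disease it stood at 220 to 1509 CPM and in recovery at 350 to 2274 CPM. DESeq2 called Fcrls in the 9 libraries (adjusted p = 0.00717).

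A similar order of libraries appeared in Tmem144 and Rps3a1, which lie on the same chromosome. Both were named for their small p, and other genes near Fcrls were not read in this way. Tmem144, a transmembrane protein gene that starts 7.44 Mb from Fcrls on chromosome 3, ranged from 7.78 to 13 CPM in 5 rNLS8 libraries and reached 21.4 CPM in Control 6, against 52.7, 31.9 and 27.0 CPM in WT microglia (log2 difference −1.63 ± 0.33, adjusted p = 0.551), and DESeq2 called it (adjusted p = 0.00422). Rps3a1, a gene of the small ribosomal subunit 1.11 Mb from Fcrls, ranged from 20.2 to 37.6 CPM in those 5 libraries and stood at 86.3 CPM in Control 6, against 155, 75.5 and 80.3 CPM in WT microglia (−1.69 ± 0.41, adjusted p = 0.815). For all 3 genes Control 6 was the rNLS8 library nearest to WT and Control 1 the highest WT library. Of the 708 tested genes of chromosome 3, 47 had an unadjusted p under 0.05 (6.64%), beside 3.87% of all genes tested. Of these, 22 were higher and 25 lower in rNLS8 microglia. The share was also above 3.87% on other chromosomes, such as X (5.73%) and 1 (5.13%), and in the mitochondrial genome (33.3%).

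Rps3a1 has a near-identical copy as well. Rps3a2 on chromosome 14, chosen after its values were seen, is annotated as a processed pseudogene and matched Rps3a1 at 99.49% of 792 positions. It ran the other way, with 19.4 to 59.5 CPM and a median of 46.2 in rNLS8 microglia, against 1.49, 19.8 and 24.8 CPM in WT microglia (log2 difference 1.49 ± 0.61, adjusted p = 1). The sum of both was 54.2 to 106 CPM in rNLS8 and 95.3 to 157 CPM in WT libraries, with overlap between the groups. Both belong to the list of cytosolic ribosomal proteins, whose 75 tested genes had a median log2 difference of 0.06, with 0 called. At an unadjusted p under 0.05 1 was higher, the pseudogene Rps3a2, and 2 were lower, beside 2.03% and 1.84% of all genes tested. The list was formed by gene name and so holds this copy, whose reads are hard to tell from those of Rps3a1. The other lower member was Rpl26, of the large subunit, at 9.81 to 55.4 CPM in rNLS8 microglia, against 58.5, 37.0 and 73.0 CPM in WT microglia (−1.10 ± 0.39, adjusted p = 1), with overlap.

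The other genes of smallest p among lower values were Rsrp1, Hist3h2a, Irgm2 and Pttg1, each uncalled by edgeR and called by DESeq2. Rsrp1, which encodes an arginine and serine rich protein, stood at 211 to 451 CPM with a median of 329 in rNLS8 microglia, and at 587, 656 and 541 CPM in WT microglia (log2 difference −0.78 ± 0.15, adjusted p = 0.480). Hist3h2a, a histone H2A gene, stood at 12.4 to 26.3 CPM with a median of 15.4, against 33.7, 27.9 and 42.8 CPM in WT microglia (−1.12 ± 0.21, adjusted p = 0.480). Irgm2, an interferon-inducible GTPase gene, stood at 40.2 to 85.4 CPM with a median of 56.4, against 109, 89.9 and 119 CPM in WT microglia (−0.89 ± 0.20, adjusted p = 0.805). The groups did not overlap for any of these 3 genes. Pttg1, the gene of securin, stood at 1.41 to 2.23 CPM in rNLS8 microglia, and at 13.6, 1.42 and 29.1 CPM in WT microglia. Control 2 lay within the rNLS8 range, so the difference of −2.93 ± 0.59 (adjusted p = 0.551) rested on the other 2 WT libraries. Without Control 2 it was −3.49 with an adjusted p of 0.00825.

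**Figure D2:**
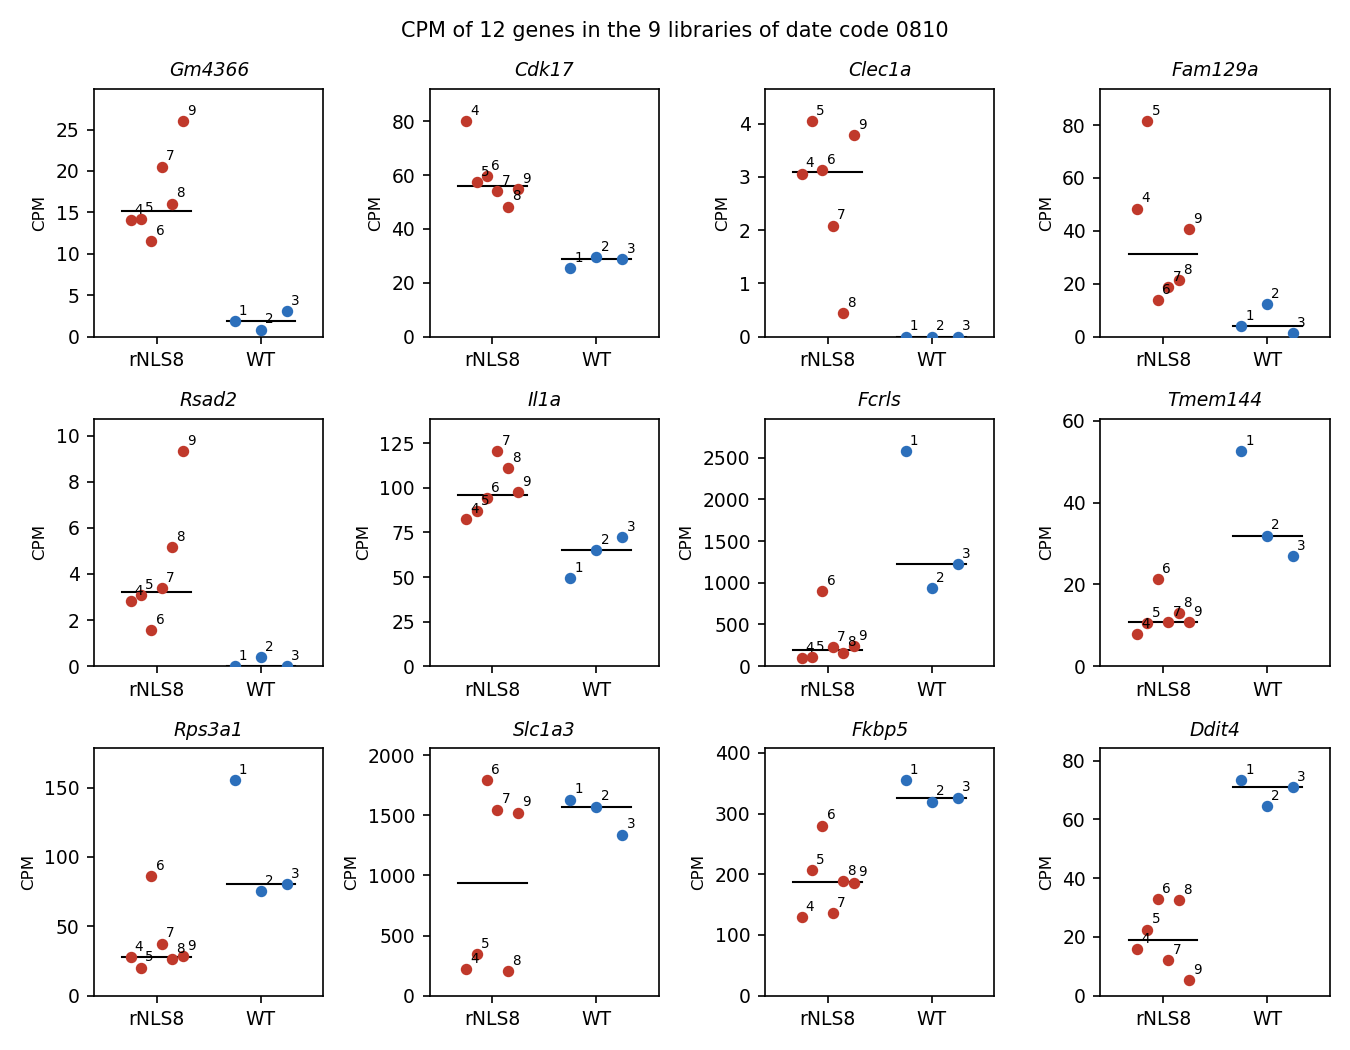
Level (CPM) of 12 genes in the 9 libraries, with a point for each library marked by its control number, rNLS8 on the left, WT on the right, and a line at each median. Gm4366, Cdk17, Clec1a, Fam129a, Rsad2 and Il1a are higher in each rNLS8 library, Ddit4 and Fkbp5 are lower in each, Control 6 lies nearest to WT for Fcrls, Tmem144 and Rps3a1, and Slc1a3 splits the rNLS8 libraries.

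Of 4 mouse genes related to the transgene, 2 were tested and 0 called. Tardbp, the mouse gene of TDP-43, stood at 34.1 to 49.5 CPM with a median of 43.4 in rNLS8 microglia, and at 41.8, 30.4 and 41.0 CPM in WT microglia (log2 difference 0.14, 95% interval −0.25 to 0.52, adjusted p = 1). Nefh, whose promoter drives the transactivator in neurons, had a trace in Control 8 and 1.76 CPM in Control 2 and was at 0 in the other 7 libraries, too low to be tested. Nefl, which encodes the neurofilament light chain, was at 0 to 0.943 CPM in rNLS8 microglia, and at 2.13, 0 and 0.0539 CPM in WT microglia, and its log2 difference of −0.73 had an interval of −5.29 to 3.83. Of the 25 tested genes linked to ALS and frontotemporal dementia, 0 were called, 0 had an unadjusted p under 0.05 and the median log2 difference was 0.07, beside 0.005 over all genes tested. The range was −0.29 to 0.47, with Ubqln2, which encodes a shuttle protein of the proteasome, at the upper end.

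Of the 30 tested homeostatic genes, 0 were called and the median was −0.04. An unadjusted p under 0.05 was reached by 2, both lower (Fcrls and Olfml3), beside 1.84% of all genes tested. P2ry12, the purinergic receptor by which microglia sense nucleotides, stood at 7477 to 9008 CPM in rNLS8 microglia, and at 7623, 7099 and 7845 CPM in WT microglia, with a difference of 0.17 ± 0.08. Tmem119 stood at 7651 to 9504 CPM, against 8671, 7752 and 9249 CPM in WT microglia, and its 95% interval ran from −0.19 to 0.19. The fractalkine receptor gene Cx3cr1 had an interval of −0.05 to 0.22. Olfml3, a secreted protein of microglia, stood at 1931 to 3421 CPM with a median of 2330 in rNLS8 microglia, and at 4816, 3014 and 3295 CPM in WT microglia (−0.60 ± 0.19, adjusted p = 1), so its groups overlapped.

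Of the 27 tested disease-associated genes, 0 were called and the median was 0.06. At an unadjusted p under 0.05 2 were higher and 1 lower, beside 2.03% and 1.84% of all genes tested. Trem2, a lipid-sensing receptor that this state is known to need, had an interval of −0.19 to 0.25, with 1160 to 1629 CPM in rNLS8 microglia, and 1248, 1237 and 1326 CPM in WT microglia. Apoe, the lipid carrier, stood at 25.9 to 68.1 CPM with a median of 55.1 in rNLS8 microglia, and at 29.1, 36.2 and 52.7 CPM in WT microglia (0.42 ± 0.30, adjusted p = 1). Spp1 (osteopontin) and Cst7 (cystatin F) had differences of 0.37 ± 0.60 and 0.08 ± 0.66, with overlapping groups. Axl, a receptor for apoptotic cells, stood at 26.1 to 92.3 CPM with a median of 37.7 in rNLS8 microglia, against 43.3, 36.1 and 11.4 CPM in WT microglia (1.06 ± 0.38, adjusted p = 1). The chemokine gene Ccl6 stood at 156 to 238 CPM, against 325, 207 and 468 CPM in WT microglia (−0.78 ± 0.20, adjusted p = 0.815), with overlap, and DESeq2 called it (adjusted p = 0.036). Of the 32 tested proliferation genes, 0 had an unadjusted p under 0.05, and Mki67 was at 0 to 2.42 CPM in rNLS8 and 0 to 0.917 CPM in WT microglia.

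Gene lists related to the known targets of doxycycline were read next. They give RNA levels, whereas the known effects named above are on protein synthesis and enzyme activity. Both groups were eating doxycycline when their tissue was taken. The 13 mitochondrially encoded genes had a median log2 difference of 0.34, with 13 of 13 higher, 6 of them at an unadjusted p under 0.05, beside 2.03% of all genes tested, and 0 called. The median over all genes tested was 0.005. All 13 lie on the mitochondrial genome and cannot be taken as independent, so 13 of 13 is no count of separate results. mt-Atp6, a subunit of the ATP synthase, stood at 839 to 1286 CPM with a median of 1073 in rNLS8 microglia, and at 774, 776 and 784 CPM in WT microglia (0.43 ± 0.14, adjusted p = 1). mt-Nd4, of complex I, stood at 464 to 614 CPM with a median of 543, against 445, 398 and 427 CPM in WT microglia (0.35 ± 0.11, adjusted p = 1). These 2 genes of the 13 did not overlap between the groups, as 2.28% of all genes did not, and mt-Co1, of complex IV, overlapped, with 1663 to 2181 CPM against 1434, 1515 and 1691 CPM in WT microglia. Their summed level was 7011 to 10290 CPM in rNLS8 libraries, highest in Control 7, which also had the largest TPM share outside the table, and 6280 to 7123 CPM in WT libraries. With that share as a covariate the median was 0.31.

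Nuclear genes of the same organelle had medians near 0. For the 74 oxidative phosphorylation genes encoded in the nucleus the median was 0.04, with 0 called and 0 at an unadjusted p under 0.05. The 77 mitochondrial ribosomal protein genes had a median of 0.00, with 0 called. At that p 2 were higher, Mrps14 and Mrpl42, beside 2.03% of all genes tested. Of the 27 tested genes of the mitochondrial and integrated stress response, 0 were called. At that p 2 of the response's genes had lower values, beside 1.84% of all genes tested. Its transcription factor Atf4 had a difference of −0.13 ± 0.18, and Asns, the asparagine synthetase that Atf4 is known to induce, stood at 0.421 to 3.45 CPM in rNLS8 and 0 to 2.98 CPM in WT microglia. Ddit4, an inhibitor of mTORC1, stood at 5.42 to 32.9 CPM with a median of 19.1 in rNLS8 microglia, and at 73.3, 64.5 and 71.0 CPM in WT microglia (−1.76 ± 0.41, adjusted p = 0.805), without overlap. Pck2, the mitochondrial carboxykinase, stood at 41.7 to 56.5 CPM, against 70.0, 60.4 and 66.7 CPM in WT microglia (−0.36 ± 0.14, adjusted p = 1). Of the 10 tested metalloproteinases and inhibitors, 0 were called and the median was 0.05. At an unadjusted p under 0.05 1 was higher, Mmp9, beside 2.03% of all genes tested. It had 409 counts over the rNLS8 group, all in its males, Controls 6, 7 and 9, and 0 over the WT group. Mmp12, the macrophage elastase, stood at 0.0637 to 6.19 CPM, against 1.49, 12.3 and 4.80 CPM in WT microglia (−2.38 ± 1.13, adjusted p = 1).

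Ddit4 is also known as a target of the glucocorticoid receptor. Of the 23 tested glucocorticoid and clock genes, 11 had higher and 12 lower values in rNLS8 microglia, with 0 called and a median of −0.02. An unadjusted p under 0.05 was reached by 4 with lower values, beside 1.84% of all genes tested, and by 0 with higher values. Fkbp5, a co-chaperone of the receptor and a common readout of its activity, stood at 130 to 280 CPM with a median of 188 in rNLS8 microglia, and at 355, 320 and 326 CPM in WT microglia (−0.85 ± 0.21, adjusted p = 0.815). Zbtb16, a transcription factor gene that glucocorticoids induce, stood at 0.195 to 4.63 CPM with a median of 1.25, against 7.88, 6.13 and 8.95 CPM in WT microglia (−2.27 ± 0.74, adjusted p = 1). Neither gene overlapped between the groups. Tsc22d3 (GILZ) and the kinase gene Sgk1 had differences of −0.36 ± 0.13 and −0.33 ± 0.14. Per1, a clock gene that glucocorticoids also induce, and the clock gene Arntl had differences of 0.43 ± 0.32 and 0.36 ± 0.36. The sources used here do not give the hour at which each mouse was killed. DESeq2 called Ddit4 (adjusted p = 0.0116) and Fkbp5 (adjusted p = 0.0192). On the scale common to the 35 libraries, Ddit4, Fkbp5 and Zbtb16 had medians of 5.38, 93.7 and 0.0601 CPM in WT libraries of other dates. Their medians were 19.3, 190 and 1.27 CPM in the rNLS8 libraries and 71.9, 330 and 7.94 CPM in the same-date WT libraries. The rNLS8 medians thus lay between those of the WT sets. Single libraries varied widely, and Ddit4 ran from 1.61 to 51.8 CPM in WT libraries of other dates. Ddit4 reached 202 CPM in recovery, and Fkbp5 and Zbtb16 reached 916 and 77.7 CPM in late disease. Dates and diets differ between these groups, and the cause was not tested.

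Immune response lists had small positive medians, and edgeR called none of their genes. With limma on log2(TPM + 1), which moved the median of all genes to −0.11, the medians of these lists lay between −0.00 and 0.07. Of the 21 tested antigen presentation genes, 5 had an unadjusted p under 0.05, each higher, beside 2.03% of all genes tested, and the median was 0.20. B2m, the light chain of class I molecules, stood at 2756 to 3274 CPM with a median of 2882 in rNLS8 microglia, and at 2055, 2736 and 2478 CPM in WT microglia (0.27 ± 0.10, adjusted p = 1). The lowest rNLS8 value was barely above Control 2. The class I genes H2-K1 and H2-D1 averaged 423 and 1163 CPM in rNLS8 microglia, and 317 and 737 CPM in WT microglia (0.45 ± 0.21 and 0.67 ± 0.29, adjusted p = 1 each), and H2-Q6 had a difference of 2.03 ± 0.64. Class I genes are near-identical to each other, and the split of reads among them is uncertain. Cd74, the chaperone of class II molecules, had a difference of 0.09 ± 0.34.

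Interferon and cytokine genes included several at low levels. Of the 29 tested interferon response genes, 3 had an unadjusted p under 0.05, each higher, beside the same 2.03%, and the median was 0.17. Rsad2 (viperin) stood at 1.57 to 9.34 CPM with a median of 3.23 in rNLS8 microglia, and at 0, 0.398 and 0 CPM in WT microglia (adjusted p = 0.828), and Ifitm3 at 8.79 to 18.9 CPM, against 6.18, 6.59 and 4.85 CPM in WT microglia (1.16 ± 0.34, adjusted p = 1). Neither overlapped between the groups, while the canonical members Ifit1 and Irf7 had differences of −0.35 and −0.20. Of the 21 tested cytokine and NF-kB target genes, 4 were higher and 1 lower at an unadjusted p under 0.05, with a median of 0.12. Of all genes tested, 2.03% were higher and 1.84% lower at that p. Il1a, the gene of interleukin 1 alpha, stood at 82.7 to 121 CPM with a median of 96.0 in rNLS8 microglia, and at 49.5, 65.0 and 72.3 CPM in WT microglia (0.64 ± 0.16, adjusted p = 0.815). Its groups did not overlap. The monocyte attractant gene Ccl2 stood at 0.765 to 5.75 CPM, against 0, 0.454 and 0.216 CPM in WT microglia (3.67 ± 1.14, adjusted p = 1). DESeq2 called Rsad2, Il1a and Ccl2, with adjusted p of 0.0012, 0.0474 and 0.0496. On the scale common to the 35 libraries, Rsad2, Ifitm3, Il1a and Ccl2 had medians of 2.93, 12.7, 122 and 3.25 CPM in WT libraries of other dates. Their medians were 3.27, 11.5, 97.2 and 3.06 CPM in the rNLS8 libraries. For each of them the highest same-date WT value was below the lowest WT value of other dates. Dates and diets differ, and the cause was not tested.

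In the remaining lists of gene programmes edgeR called 0 genes. For comparison with each list here, 2.03% of all genes tested were higher and 1.84% lower at an unadjusted p under 0.05. Of 28 cholesterol and lipid genes, 4 were higher and 1 lower at that p, with a median of 0.09. Nsdhl, a late enzyme of cholesterol synthesis, stood at 18.4 to 28.0 CPM, against 14.6, 7.04 and 15.2 CPM in WT microglia (0.97 ± 0.28, adjusted p = 1), and Soat1, which esterifies cholesterol, at 157 to 217 CPM, against 147, 143 and 148 CPM in WT microglia (0.36 ± 0.12, adjusted p = 1). Neither gene overlapped between the groups. Of 12 complement genes 1 was higher at that p, C3, with 60, 38, 1, 21, 1 and 39 counts in Controls 4 to 9 and 0, 1 and 0 in Controls 1 to 3. Controls 6 and 8 held no more C3 counts than Control 2, and the ratio of the groups was 83.1 (exact interval 14.7 to 3301, for counting error only). On the scale common to the 35 libraries, C3 stood at 1.75 to 3.04 CPM in WT libraries of other dates. Its median was 1.79 CPM in the rNLS8 libraries, and the same-date WT libraries had at most 0.0576 CPM. Of 30 lysosome and phagocytosis genes 1 was higher, and of 23 immediate early and stress genes 1 was lower. Fos, the immediate early gene that cell dissociation is known to induce, was at 0 in 4 of the 6 rNLS8 libraries and in 1 WT library, with at most 4.94 CPM, and was not tested.

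**Figure D3:**
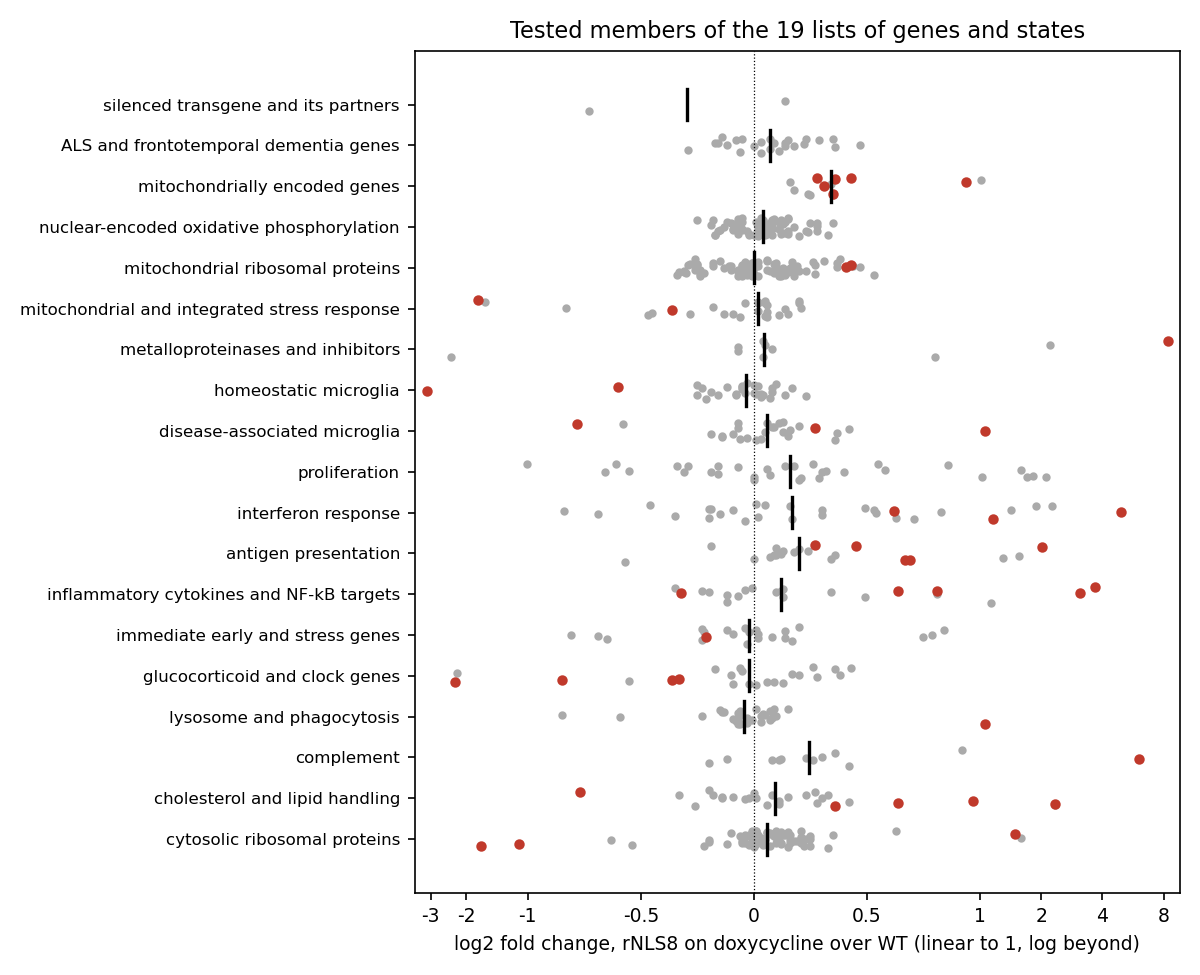
Log2 difference, rNLS8 on doxycycline over WT, of each tested gene in 19 lists (linear axis to 1, log axis beyond), with red points for an unadjusted p under 0.05, grey points for the rest and a black bar at the list's median. No point in any list passed the adjusted p in edgeR, the 13 mitochondrially encoded genes all lie above 0, and points beyond 4 are fitted values of genes that are at or near 0 counts in WT libraries.

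Marker lists of other cells that the CD11b and CD45 gate could hold differed widely in level, and several markers were uneven between libraries. The neutrophil granule genes S100a8 and S100a9 stood at 78.5 and 54.4 CPM in Control 6 and at 29.3 and 29.3 CPM in Control 7, and at 4.60 CPM or less in the 4 other rNLS8 libraries and the 3 WT libraries. Mmp9, the gelatinase of neutrophil granules, had 294, 87 and 28 counts in Controls 6, 7 and 9 and 0 in the other 6 libraries. Those 3 libraries are the males of the rNLS8 group, and the WT group has 1 male, Control 3. Of the 18 neutrophil markers 6 were tested and 5 were at 0 in all 9 libraries. The 6 had a median of 5.47, or 5.22 with Mmp9 at its lower bound, and the median was 0.32 without Control 6, 0.44 without Control 7, 0.35 without Control 9 and −0.02 without Control 3. Csf3r made up most of the list's sum, with a mean of 531.4 CPM in rNLS8 and 530.9 CPM in WT libraries. Summed over the list, neutrophil markers stood at 515 to 837 CPM in rNLS8 and at 448 to 602 CPM in WT libraries (exact permutation p = 0.488, adjusted p = 0.873). With neutrophil and erythroid scores as covariates the Mpeg1 difference was 2.66, with an adjusted p of 0.00207.

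Haemoglobin came from a single library. Hba-a1 and Hbb-bs, the globin genes of red cells, stood at 30.9 and 37.6 CPM in Control 8, with 3 counts of Hba-a1 in Control 9 and 0 of either gene in the other 7 libraries. Summed erythroid markers were 131 CPM in Control 8, 3.78 to 13.6 CPM in the other 5 rNLS8 libraries and 3.38 to 10.5 CPM in WT libraries. Monocyte markers summed to 15.4 to 35.01 CPM in rNLS8 libraries, highest in Control 6, and to 10.2 to 19.9 CPM in WT libraries. T and NK cell markers summed to at most 1.55 CPM in rNLS8 and 1.14 CPM in WT libraries, with 11 of 15 at 0 in all 9. Neuron markers reached 2.88 CPM in rNLS8 and 4.79 CPM in WT libraries, with 6 of 15 at 0. Ighm made up most of the B cell sum, with 225 to 326 CPM in rNLS8 and 260, 303 and 318 CPM in WT libraries, while 7 of the 12 B cell markers were at 0 in all 9. Oligodendrocyte markers summed to 1163 to 2040 CPM in rNLS8 and 1450 to 2037 CPM in WT libraries, border macrophage markers to 7.00 to 27.8 CPM in rNLS8 and 13.2 to 27.2 CPM in WT libraries, and endothelial markers to 12.2 to 50.5 CPM in rNLS8 and 19.5 to 34.1 CPM in WT libraries. Oligodendrocyte precursor markers reached 1.49 CPM in rNLS8 and 2.89 CPM in WT libraries, and mural and fibroblast markers 3.22 CPM in rNLS8 and 1.58 CPM in WT libraries. The lowest exact permutation p of the 16 library values was 0.143, and no single value could have passed alone once adjusted over 16. The part of these cells in the gene differences was not tested beyond the fit with those covariates.

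Slc1a3, which encodes the glutamate transporter GLAST and stands on the astrocyte list, divided the rNLS8 libraries themselves. It stood at 221, 348, 1792, 1547, 207 and 1523 CPM in Controls 4 to 9, and at 1631, 1572 and 1339 CPM in Controls 1 to 3. The 3 low rNLS8 libraries, Controls 4, 5 and 8, are the 3 females of the group, with 207 to 348 CPM, and the 3 males had 1523 to 1792 CPM. WT females had 1572 and 1631 CPM, and the single WT male had 1339 CPM. Over both sexes the log2 difference was −1.80 ± 0.47 with an adjusted p of 0.835, and among females alone, 3 against 2, it was −2.63 with an adjusted p of 0.0077. A test of the sex by group term, chosen after these values were seen, gave 2.91 ± 0.35 for the male minus the female log2 difference with an adjusted p of 0.0307, and it called 3 of 12958 genes (0.0232%), the others being Ccdc85a and the pseudogene Rpl3-ps1. The male difference in it rests on 1 WT library, and the Slc1a3 call was lost with the sex given in the labels and without any one of Controls 1, 2, 4, 6, 7 and 9. Without Control 3 no WT male was left to set beside the rNLS8 males. With sex in the fit, the group difference then rested on the same females. It was again −2.63 (adjusted p = 0.000536), which is no separate support. At other dates low values occurred in both sexes. Slc1a3 stood at 159 to 1543 CPM (median 191) in 4 females and 1090 to 1405 CPM in 3 males of early disease, at 583 to 2730 CPM in 3 females and 172 to 2600 CPM in 4 males of late disease, at 1494 to 2720 CPM in 4 females and 1017 to 1839 CPM in 3 males of recovery, and at 1341 to 1530 CPM in 3 females and 1595 to 1764 CPM in 2 males among WT mice. The other tested astrocyte markers averaged at most 4.47 CPM in rNLS8 and 6.13 CPM in WT microglia, so Slc1a3 made up nearly all of the list's sum.

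A contrast of rNLS8 over WT was repeated in libraries with no part in the comparison above, where disease state and diet differ from it. Early disease (5 libraries of mice taken off doxycycline for 2 weeks) was set against WT of the same dates (5 libraries, 4 of mice off doxycycline for 2 weeks and 1, Control 14, for 6 weeks). The same fit also held the 4 late disease libraries of those dates, as a group of their own, with terms for date and sex. Control 14 was the only WT library of its date, so the contrast within that date rested on it. In this contrast neither group was back on doxycycline, and diet was not uniform within the WT group. The fit gave 0 of 13085 genes called (0%) by edgeR, 362 at an unadjusted p under 0.05 (2.77%) and 12 called by DESeq2. Mpeg1 stood at 180 to 1584 CPM with a median of 1144 in early disease and at 143 to 2354 CPM with a median of 213 in WT microglia, and its log2 difference was 0.94 ± 1.10 (95% interval −1.43 to 3.30, adjusted p = 0.999). Gm4366, Cdk17, Hist3h2a, Fcrls, Pttg1, Tmem144 and Irgm2 kept the sign they had in the rNLS8 mice on doxycycline, with differences of 0.56, 0.36, −0.67, −1.10, −0.63, −0.99 and −0.44. Clec1a, Fam129a and Rsrp1 had the other sign, with −1.19, −0.46 and 0.03. None of these 11 genes passed the test in early disease (adjusted p = 0.999 each). Gm609 was too low to be tested there.

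The difference between these 2 contrasts of rNLS8 over WT, which differ in diet and disease state, was then tested itself. Of 13772 genes 0 were called (0%) by edgeR, 510 had an unadjusted p under 0.05 (3.70%) and DESeq2 called 36. Clec1a had the smallest adjusted p among the genes named here, 0.0983. Mpeg1 had a difference of 1.71 ± 1.04 (unadjusted p = 0.117, adjusted p = 1), and Fcrls one of −2.0 ± 0.70 (unadjusted p = 0.0107, adjusted p = 1). Early disease and WT libraries of those dates lay on both sides of the empty stretch in the Mpeg1 values, and a p that misses the threshold does not show that the contrasts are alike.

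**Figure D4:**
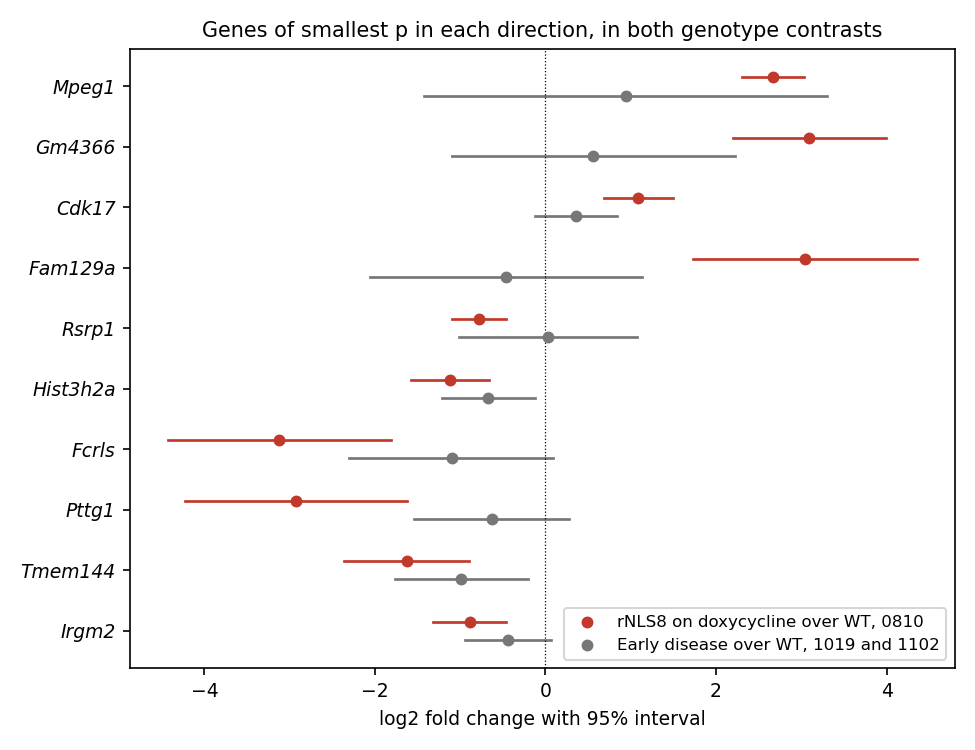
Log2 difference with its 95% interval for 10 genes in rNLS8 mice on doxycycline over WT of the same date (red) and in early disease over WT of other dates (grey). The Mpeg1 interval of 2.31 to 3.03 lies far from 0 in the first contrast, and that of −1.43 to 3.30 in the second includes 0. Clec1a and Gm609 are not drawn. Clec1a had −1.19 (95% interval −2.68 to 0.30) in early disease, the other sign from the first contrast, and Gm609 was not tested there.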

How the data were processed

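The authors deposited expected counts (estimated fragments per gene, which need not be whole; 85.3% of the values in the 9 libraries were), here rounded to integers for count tests, and TPM values for the same 45706 mouse genes. RSEM, DESeq2 and the build mm10 are named, per the submitters' processing notes, without versions. The authors' design table holds a count of effective alignments per library and the sex of each mouse. Cells had been sorted on CD11b and CD45 after Percoll, and the library kits do not mark strand or molecules, per the labels' protocols. All 9 libraries ran in all 8 lanes. Symbols matched 45143 genes, and coordinates are those of GENCODE on mm10.

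The tests used edgeR 4.0.16 (R 4.3.3) with TMM scaling, filterByExpr by group, sex as covariate and a quasi-likelihood F test with Benjamini-Hochberg adjustment, called under 0.05. CPM is scaled to the TMM-adjusted library. Single library values were tested by exact permutation. Alternatives used DESeq2 1.42.0, limma 3.58.1 on deposited TPM (log2 after adding 1 or 0.1), other filters, covariates and library sets. Transcript copies were aligned with Biopython 1.88. Replicates were compared by chi-square, and the lowest median was 8.23 against 0.455 for equal libraries, so each counted once. Nothing states that libraries came from separate mice beyond their labels, so p-values measure the spread between these libraries.

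Named genes were every called gene, those of smallest p up to 6 in each direction, the 2 of smallest p in each list, and a set of markers whatever their values, while other genes given as examples of a list were chosen after their values were seen. The members, the 31 gene lists and these rules were chosen with earlier results of these data known.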

Additional observations from a re-analysis of the deposited data

Results flagged for a closer look

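Among 100 values tested for a single library far from the rest of the 6 rNLS8 libraries, 8 stood out. The rule would flag about 1 in 20 of normally distributed values. That rate cannot be counted on for genes at 0 in most libraries, such as Cdh5, so the 8 were not set against it. Control 8 was lowest for Clec1a at 0.446 CPM, with the next library at 2.08 CPM, and for Cst7 at 0.510 CPM, with the next at 4.10 CPM. It was highest for summed erythroid markers at 131 CPM, with the next at 13.6 CPM. Control 7 was lowest for Itga4, an integrin gene on the monocyte list, at 0 CPM, with the next at 1.78 CPM, and for Cd79b, a B cell receptor gene, at 1.24 CPM, with the next at 16.2 CPM. It was highest for Trem2 at 1629 CPM, with the next at 1315 CPM. Control 5 was the single rNLS8 library with the endothelial gene Cdh5, at 0.912 CPM, while the WT libraries Control 1 and Control 3 held 0.852 and 1.24 CPM. Control 6 was highest for summed monocyte markers at 35.01 CPM, with the next at 20.9 CPM.

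In a sex by group term chosen after the values were seen, with a single WT male, Slc1a3 had 2.91 on the log2 scale, male minus female, with an adjusted p of 0.0307. That call was lost with the labels' sex and without any one of 6 libraries, so it is given as a value to look at again. Ccdc85a had a term of 12.91 in the same test because the single WT male had 0 CPM, against a mean of 61.6 CPM in WT females, and Rpl3-ps1 one of 4.73.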

How the results depend on the processing

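No paired analysis was possible because rNLS8 and WT mice share no replicate number. Mpeg1 was called under each of the 21 alternatives but the fit of all 35 libraries, with log2 differences of 2.53 to 2.78. The count of called genes, 1 higher and 0 lower, was the same with other size factors, a stricter filter, the labels' sex, no sex term, the outside TPM share, and the neutrophil and erythroid scores. DESeq2 called 40 (20 higher, 20 lower), no low-count filter 69 (30 higher, 39 lower), limma 2 with either pseudocount (2 higher), females only 6 (1 higher, 5 lower) and all 35 libraries 2 (1 higher, 1 lower, Clec1a and Amotl2). Leaving out 1 library gave 1 to 5 called, 1 to 4 higher and 0 to 2 lower, with 5 without Control 2 and 3 without Control 3 or Control 6. For early disease DESeq2 called 12 (6 higher, 6 lower), and leaving out 1 library gave 0 to 1, higher 0, lower 0 to 1. For the difference of the 2 contrasts DESeq2 called 36 (28 higher, 8 lower), and leaving out 1 library gave 0 to 1. The sex by group term called 23 with DESeq2, 1 with the labels' sex and 1 to 7 with a library left out. Its Slc1a3 call was lost with the labels' sex (0.99, adjusted p = 1) and without any one of Controls 1, 2, 4, 6, 7 and 9, and could not be fitted without Control 3. The cause of these changes was not tested.

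Limma on TPM moved the median of all genes to −0.11 and −0.13, and the medians of several lists near 0 turned negative under it, while the mitochondrially encoded median stayed positive at 0.21 to 0.38 under every alternative. The neutrophil median ran from −0.02 to 8.99, and not every alternative tested the same neutrophil genes. With 3 WT libraries, intervals of genes under about 5 CPM are wide, and a gene not called here may still differ.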
